A study of Mus musculus with 6 samples.

Results

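A set of 10 genes of the bone morphogenetic protein (BMP) pathway were followed through 6 RNA-seq libraries of NIH3T3 cells, a line of mouse embryo fibroblasts. They were 10 of the 35275 rows of the count table, taken by gene symbol: Bmp4, Bmp2, Bmp1, Grem1, Nog, Id1, Id2, Id3, Smad6 and Smad7. The genes were chosen by their names with the measured difference of Bmp4 and others between the groups already known. Their differences between the groups are therefore given as a description, without p-values. Among the libraries, 3 came from wild-type cells and 3 were labelled as NgBR overexpression, NgBR being the Nogo-B receptor, encoded in mouse by Nus1. The overexpressing line, per the labels' protocols, was made by stable transfection of an HA-tagged NgBR plasmid (pIRES-NgBR) under G418 selection. Both lines grew in DMEM with calf serum and antibiotics. Neither the promoter that drives NgBR nor whether the line is 1 clone or a pool is given in the sources used. No empty-vector line was among the libraries, so that NgBR, the plasmid and drug selection cannot be told apart. The labels do not say whether the libraries of a group came from separate cultures, so the spread between them may be technical.

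BMPs are secreted growth factors of the TGF-beta superfamily that bind pairs of type I and type II serine/threonine kinase receptors. The receptors phosphorylate Smad1, Smad5 and Smad9, which enter the nucleus with Smad4 and switch on targets such as the Id genes. Smad6 and Smad7, the inhibitory Smads, are themselves induced by BMP or TGF-beta signals and dampen the receptors. Noggin and gremlin, the products of Nog and Grem1, bind BMPs outside the cell and keep them from their receptors. In fibroblasts and other mesenchymal cells the pathway is best known for bone and cartilage formation.

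Upstream sequences were examined for only 5 of the 10 genes, Bmp4, Grem1, Id2, Id3 and Smad6, in RefSeq's GRCm38.p6 annotation (the assembly of mm10). They are shown for the 3 whose 250 bases before the transcript start hold no annotated exon. Bmp4 and Smad6 were above the call threshold described below, and Grem1 was close to undetected, so that the set holds both kinds. The windows are mm10 chr14:46390670-46390919 for Bmp4, chr9:64022060-64022309 for Smad6 and chr2:113758649-113758898 for Grem1, all on the minus strand and printed 5′ to 3′. Capitals mark 3 motifs searched on both strands: the Smad box GTCT, the GC element GGCGCC bound by BMP Smads, and the E box CANNTG, the site of basic helix-loop-helix factors that Id proteins hold off DNA.
Bmp4: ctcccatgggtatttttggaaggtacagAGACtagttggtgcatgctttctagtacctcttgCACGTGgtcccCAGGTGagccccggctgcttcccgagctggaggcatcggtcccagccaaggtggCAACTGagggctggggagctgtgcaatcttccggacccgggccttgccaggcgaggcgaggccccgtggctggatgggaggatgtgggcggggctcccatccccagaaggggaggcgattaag
Smad6: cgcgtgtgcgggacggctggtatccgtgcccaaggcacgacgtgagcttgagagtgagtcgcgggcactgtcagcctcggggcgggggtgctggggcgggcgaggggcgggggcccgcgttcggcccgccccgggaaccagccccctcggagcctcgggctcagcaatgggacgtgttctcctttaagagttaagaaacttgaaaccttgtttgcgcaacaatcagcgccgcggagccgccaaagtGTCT
Grem1: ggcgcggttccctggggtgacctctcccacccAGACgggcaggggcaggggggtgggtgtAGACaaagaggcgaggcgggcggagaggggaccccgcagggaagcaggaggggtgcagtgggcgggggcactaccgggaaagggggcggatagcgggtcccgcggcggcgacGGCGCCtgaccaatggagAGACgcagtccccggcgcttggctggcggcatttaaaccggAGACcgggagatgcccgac

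The Bmp4 window held 1 Smad box, starting 222 bases before the transcript start, and 3 E boxes, at 188, 177 and 123 bases. In the Smad6 window the only match was 1 Smad box, 4 bases before the start. The Grem1 window held 4 Smad boxes, at 218, 190, 60 and 19 bases, and 1 GC element, at 78 bases. Of 32851 such windows in the RefSeq table, 82.9% held a Smad box, 9.59% the GC element and 66.2% an E box. At least 3 E boxes, as before Bmp4, were found in 12.2% of them, and at least 4 Smad boxes, as before Grem1, in 12.5%. A match describes letters only, not a site in use.

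Depth ran with the groups, at between 29515072 and 35511769 counts in wild-type libraries and between 7369961 and 10358381 in the NgBR-labelled ones. Levels are in CPM, each gene's counts scaled to a common library size after TMM normalization, with the SD over the n = 3 libraries of a group. Values of single libraries follow the order of their numbers, 1 to 3. Nus1, the check of the label, was at 211 ± 22.8 CPM in wild type and 178 ± 11 CPM in the NgBR-labelled libraries, a log2 fold change of -0.24 (SE 0.21), so that it did not rise with the label. Whether reads of the transfected NgBR were counted at this gene was not tested. Markers of the labelled cell type were abundant, with the 8 fibroblast markers summing to between 19599 and 31798 CPM in each library. Of the osteoblast markers, Ibsp had 0 counts in every library, while Sp7, Bglap and Dmp1 had at most 4, 6 and 1 in any library. The 4 osteoblast markers summed to at most 0.594 CPM. Chondrocyte markers summed to between 97.9 and 133 CPM in wild type and between 149 and 174 CPM in the NgBR-labelled libraries, nearly all of it Sox9. The 4 neural markers summed to between 6.94 and 9.0 CPM in wild type and between 9.40 and 22.2 CPM in the NgBR-labelled libraries. Of the 3 tested, Syt1 was called (edgeR adjusted p = 0.0308), at 0, 2 and 0 counts in wild type and 5, 6 and 6 in the NgBR-labelled libraries. Syt1 passed the filter on low counts only through the NgBR-labelled libraries, so its p is descriptive. Map2 was at 2.66 ± 1.0 and 7.99 ± 2.21 CPM, without overlap, and was not called (edgeR adjusted p = 0.0562). Tubb3 was at 5.44 ± 2.12 and 6.18 ± 4.36 CPM, with overlap, and was not called. Sox10 had at most 1 count. The part of cells with any of these markers in the results below was not tested.

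Bmp4 had the largest fold change among the 7 of the 10 genes that were tested, between a trace in wild type and a low level in the NgBR-labelled libraries. It encodes a BMP ligand (ENSMUSG00000021835, mm10 chromosome 14, 46383520 to 46390669, minus strand, protein-coding). The wild-type libraries gave 5, 8 and 8 counts, or 0.143, 0.271 and 0.241 CPM. The NgBR-labelled ones gave 28, 16 and 29 counts, or 3.93, 1.58 and 2.77 CPM, from libraries 3.50-fold shallower on average. Every NgBR-labelled library lay above every wild-type library, and the lowest of them was library 2. The log2 fold change was 3.62 (SE 0.52), a 12.3-fold difference in the fit. Over pooled counts, 73 against 21, the ratio of levels was 12.3, with an exact 95% interval of 7.46 to 21 that covers counting error only. An antisense gene, Gm15217, shares exonic positions with Bmp4 and had 0 counts in all libraries. In bulk RNA, more cells with Bmp4 and more Bmp4 RNA per cell cannot be told apart, which holds for every gene here.

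Bmp2, the closest relative of Bmp4 among the ligands, did not share this level. It had 0 counts in each wild-type library and 1, 0 and 1 counts in the NgBR-labelled libraries, at or under the 3 counts a group total must exceed to be told from 0. Bmp1 is a BMP by name only: it encodes a metalloprotease of the tolloid family that trims procollagens and cleaves the BMP antagonist chordin. Bmp1 stood at 68.6, 64.8 and 70.7 CPM in wild type and at 55.3, 65.5 and 56.9 CPM in the NgBR-labelled ones. The group ranges overlapped, and the log2 fold change was -0.20 (SE 0.20), with a 95% interval of -0.64 to 0.24.

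The antagonists Grem1 and Nog were barely read. Grem1 had 3, 6 and 5 counts in wild type and 2, 1 and 1 in the NgBR-labelled libraries. Corrected for depth, the pooled ratio of NgBR-labelled to wild type was 1.01, with an exact 95% interval of 0.242 to 3.21. The counts are thus compatible with any ratio inside that interval, higher or lower. Nog had 0 counts in all 3 wild-type libraries and 3, 3 and 2 counts in the NgBR-labelled libraries. Noggin transcript was thus seen in each of the shallower libraries and in none of the deeper ones. Set against 3 counts over the wild-type group, 0.0307 CPM, its level of 0.289 CPM was at least 9.41-fold higher. That bound takes the 8 counts as they are, and the exact 95% interval of the pooled ratio starts at 6.02. Bmp2, Grem1 and Nog did not pass the filter on low counts and were not tested.

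**Figure D1:**
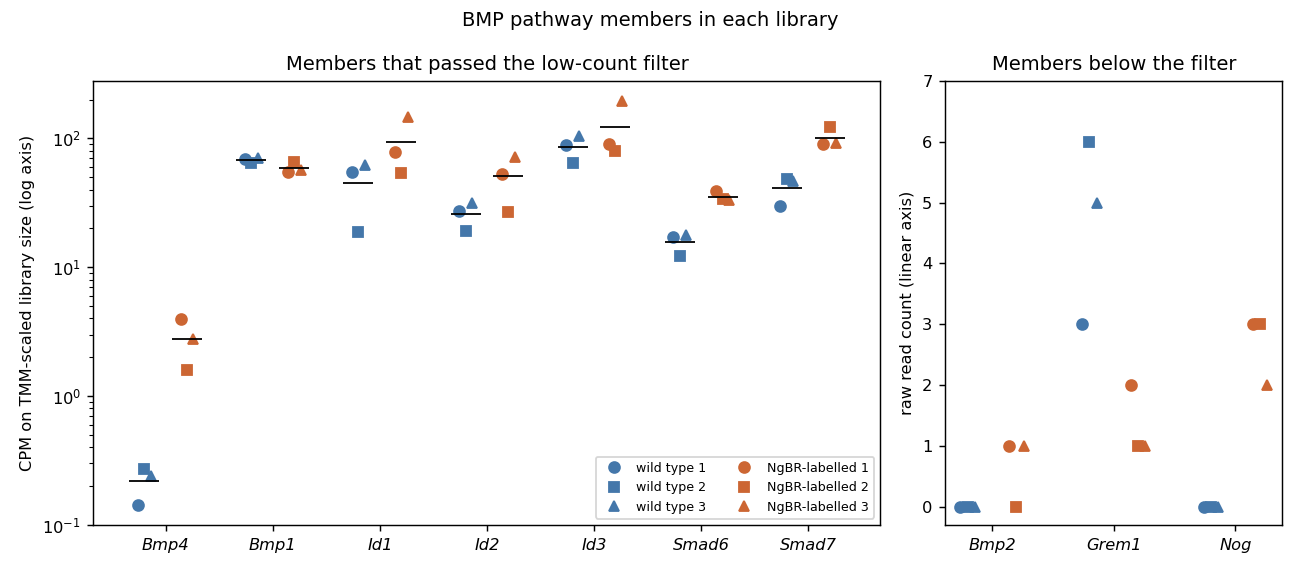
Level of each of the 10 genes in each library: CPM on a log axis for the 7 genes that passed the low-count filter (left, black lines are group means of 3 libraries) and raw counts on a linear axis for the other 3 (right). Blue is wild type, orange is NgBR-labelled, and the marker shape gives the library number. Bmp4, Smad6 and Smad7 have separate groups at left, while Bmp1, Id1, Id2 and Id3 overlap, and Nog has counts of 2 or 3 against 0 at right.

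Both inhibitory Smads were higher by a little more than 2-fold. Smad6 (ENSMUSG00000036867, mm10 chromosome 9, 63953076 to 64022059, minus strand), which mainly restrains BMP receptors, stood at 17.3, 12.3 and 17.8 CPM in the wild-type group. The NgBR-labelled group stood at 39.0, 33.5 and 33.4 CPM. The 2 sets did not overlap, and the log2 fold change was 1.16 (SE 0.23), or 2.23-fold. Smad7 (ENSMUSG00000025880, mm10 chromosome 18, 75367529 to 75395935, plus strand), which restrains TGF-beta as well as BMP receptors, was at 29.8, 48.0 and 46.5 CPM in wild type. It reached 89.8, 122 and 91.4 CPM in the NgBR-labelled group. Again all NgBR-labelled values lay above all wild-type values, and the log2 fold change was 1.29 (SE 0.26), or 2.44-fold.

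In edgeR's quasi-likelihood fit of all 12651 genes that passed the filter, a gene was called when its p, after Benjamini-Hochberg adjustment, was under 0.05. Bmp4, Smad6 and Smad7 were called, all higher, which is 3 of the 7 genes tested and 3 of the 10 in all. Of all tested genes 3.39% were called in either direction and 2.04% were called higher. All 3 NgBR-labelled libraries exceeded all 3 wild-type libraries for 9.21% of tested genes, and for the same 3 of the 7. As the contrast was known when the genes were picked, the calls are a description too, and nothing is read from these shares. Bmp4, at most 0.271 CPM in wild type, passed the filter only through the NgBR-labelled libraries, so filter and call drew on the same difference. The call of Bmp4 was made with each library left out in turn. That of Smad6 was not made without wild-type libraries 1, 2 or 3 or NgBR-labelled libraries 1 or 3, where its log2 fold change was 1.24, 1.01, 1.25, 1.08 and 1.20. That of Smad7 was not made without wild-type libraries 1 or 3 or NgBR-labelled libraries 1, 2 or 3, with log2 fold changes of 1.11, 1.38, 1.36, 1.12 and 1.35.

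Id1, Id2 and Id3 had positive fold changes and none was called in the reported fit. They encode inhibitors of DNA binding, helix-loop-helix proteins without a basic region that pair with E proteins, and are among the best known direct targets of BMP Smads. Id1 (mm10 chromosome 2, 152736251 to 152737410, plus strand) was at 55.2, 18.8 and 62.1 CPM in wild type and at 78.9, 54.3 and 146 CPM in the NgBR-labelled ones. Its log2 fold change was 1.04 with an SE of 0.48, about the size of that of Smad6 with a larger error. Without wild-type library 2 it was 0.67, and without NgBR-labelled library 3 it was 0.55. With any other single library left out it was between 1.13 and 1.33.

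Id2 (mm10 chromosome 12, 25093799 to 25097140, minus strand) was at 27.5, 19.2 and 31.4 CPM in wild type and at 53.0, 26.9 and 72.0 CPM in the NgBR-labelled group. NgBR-labelled library 2 fell among the wild-type values, and the other 2 lay above them. The log2 fold change was 0.96 (SE 0.36). It was 0.62 without NgBR-labelled library 3 and between 0.78 and 1.26 with any other single library left out. With both libraries numbered 2 left out it was 1.09 and Id2 was called. Id3 (mm10 chromosome 4, 136143497 to 136145755, plus strand) was at 89.1, 64.9 and 105 CPM in wild type and at 91.2, 79.2 and 194 CPM in the NgBR-labelled libraries. Its log2 fold change of 0.50 (SE 0.36) rested on NgBR-labelled library 3, without which it was -0.02. Whether the Id genes differed less between the groups than the inhibitory Smads was not tested.

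Within each group the 3 Id genes deviated together from library to library. In wild-type library 2, log2 CPM of Id1, Id2 and Id3 lay at -1.09, -0.41 and -0.38 relative to the group mean, the lowest of the group for each. In NgBR-labelled library 2 the deviations were -0.65, -0.80 and -0.50, again the lowest, and in NgBR-labelled library 3 they were 0.77, 0.62 and 0.79, the highest. Smad7 went the other way, with its highest value of each group in library 2, at 0.25 and 0.29. Smad6 was lowest in wild-type library 2, at -0.34, and highest in wild-type library 3, at 0.19, the order of the Id genes. In the NgBR-labelled group its deviations were 0.15, -0.07 and -0.08, without that order.

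The same libraries also differed in how levels ran with transcript length. Across genes, Spearman's rho between exonic length and a gene's log2 CPM relative to its mean over all 6 libraries was 0.24 and 0.35 in the wild-type and NgBR-labelled libraries numbered 2. It was -0.30 and -0.47 in those numbered 3, and -0.23 and 0.07 in those numbered 1. Long genes thus read relatively high in both libraries 2 and relatively low in both libraries 3, while the libraries numbered 1 differed in sign. Exonic length was 1160 bases for Id1, 2438 for Id2 and 1791 for Id3, against 3205 for Smad6 and 4521 for Smad7. Not every gene followed its length in both groups. Bmp1, the longest of the 10 at 8870 bases, was lowest in wild-type library 2, at -0.07. In NgBR-labelled library 2 Bmp1 was highest, at 0.15. Bmp4, at 2248 bases, was highest in wild-type library 2, at 0.25 on 8 counts, and lowest in NgBR-labelled library 2, at -0.68. Id4, at 3849 bases, was lowest in library 2 of both groups. Whether length accounts for these deviations was not tested. With an offset for exonic length in the fit, an alternative chosen after seeing the data, the log2 fold changes were 1.03, 0.96 and 0.46 for Id1, Id2 and Id3. They were 1.20 for Smad6, 1.31 for Smad7 and 3.63 for Bmp4, and the called genes were the same 3.

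**Figure D2:**
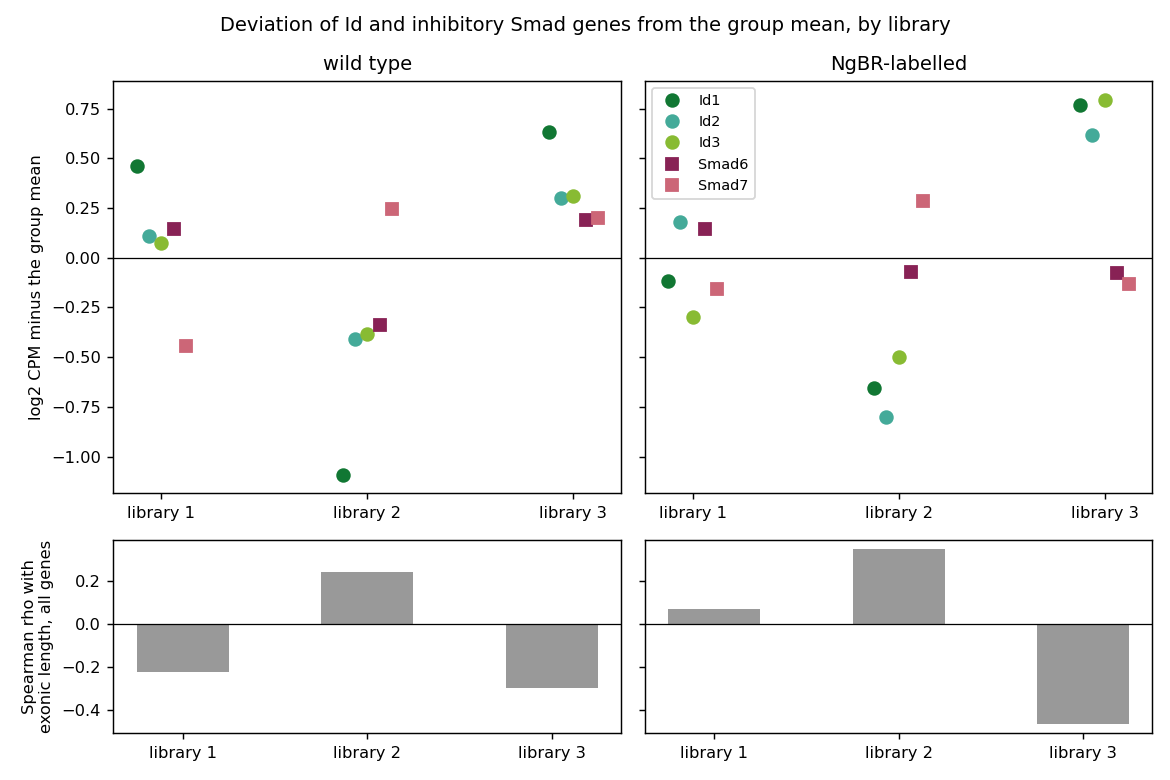
Top: deviation of log2 CPM from the group mean for the 3 Id genes (circles) and the 2 inhibitory Smads (squares) in each library of the wild-type group (left) and the NgBR-labelled group (right). Bottom: Spearman's rho, over all tested genes, between exonic length and a gene's log2 CPM relative to its 6-library mean. The Id genes are lowest in library 2 of both groups, where rho is highest at 0.24 and 0.35, and Smad7 is highest there.

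Ratios between genes of 1 library do not depend on library scaling. The log2 ratio of Id1 to Id3 was -0.69, -1.79 and -0.75 in wild type and -0.21, -0.54 and -0.42 in the NgBR-labelled libraries. That of Id2 to Id3 was -1.70, -1.76 and -1.74 in wild type, the narrowest set of all, and -0.78, -1.56 and -1.43 in the NgBR-labelled libraries. In both cases the NgBR-labelled libraries lay above the wild-type ones, so that Id3 was a smaller part of these 3 Id transcripts there than in wild type. It was still the highest of the 3 in CPM in every library. The ratios are not corrected for the length trend above. The other 8 of the 10 ratios computed among Id and inhibitory Smad genes overlapped between the groups. Smad7 to Smad6, for example, stood at 0.78, 1.96 and 1.38 in wild type and 1.20, 1.87 and 1.45 in the NgBR-labelled libraries. No test was made of these ratios.

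Levels of different genes were compared per kilobase of exon. In wild-type cells Id3 and Id1 stood highest, at 48.2 ± 11.2 and 39.1 ± 20.1 CPM per kb, with overlapping ranges. Next came Id2 at 10.7 ± 2.57, Smad7 at 9.17 ± 2.25 and Bmp1 at 7.67 ± 0.339 CPM per kb, neighbours whose ranges also overlapped, and then Smad6 at 4.93 ± 0.946 CPM per kb. Bmp4 followed far below, at 0.0971 ± 0.0297 CPM per kb. In the NgBR-labelled libraries Id1 (80.1 ± 40.7) and Id3 (67.9 ± 35.3) led, with Smad7 (22.4 ± 4.03) and Id2 (20.8 ± 9.29) overlapping each other below them, then Smad6 at 11 ± 0.995, which overlapped Id2 but not Smad7, and Bmp1 at 6.68 ± 0.617 CPM per kb. Per kb, Smad6 lay below Bmp1 in every wild-type library and above it in every NgBR-labelled one. In CPM, Smad6 lay below Bmp1 in every library of both groups, so this order depends on the exonic lengths used, 3205 and 8870 bases. Bmp4 reached 1.23 ± 0.522 CPM per kb, still below every one of these genes.

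The rest of the pathway was read from 80 further genes in 7 lists, of which 51 passed the filter. The lists were chosen with earlier results of these data known, so that their calls and p-values are descriptive. Of those 51, 2 rose and 0 fell, beside 2.04% called higher and 3.39% called in either direction among all tested genes. Above 0 lay 25 of the 51, and the median log2 fold change over the 51 was -0.0032 against -0.01 over all 12651 tested genes. All NgBR-labelled libraries lay above all wild-type ones for 8 of the 51 and below them for 3. Over all 12651 tested genes this held for 1165 and 1186. Groups without overlap are therefore named below as description only. Both genes that rose stood in the list of BMP target genes. Hes1, a transcriptional repressor also induced by Notch, was at 1.66, 1.46 and 1.51 CPM in wild type. The NgBR-labelled libraries stood at 15, 9.89 and 15.9 CPM, with no overlap and a log2 fold change of 3.13 (SE 0.30; adjusted p = 0.000758 in edgeR). Hey1, a relative of Hes1 and likewise a Notch target, rose from 2, 4 and 3 counts to 10, 11 and 9 counts, or from 0.0943 ± 0.0392 to 1.12 ± 0.273 CPM. Its log2 fold change was 3.49 (SE 0.57, edgeR adjusted p = 0.0103), and the call was lost when library 1 of the wild-type or of the NgBR-labelled group was left out (log2 fold change 3.23 and 3.31, edgeR adjusted p = 0.0634 and 0.062). With all libraries thinned to the shallowest, or with a minimum of 1 CPM in 3 libraries, Hey1 did not pass the filter and was not tested, and Hes1 was called. In the reported fit Hey1 passed only through the NgBR-labelled libraries, so the filter and its p drew on the same difference.

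The other 5 tested targets were not called, and the list's median log2 fold change was 0.54 over its 7 tested genes. Junb, an AP-1 factor, stood at 103 ± 16.7 and 92.2 ± 26.4 CPM in the wild-type and NgBR-labelled libraries, and Atoh8 at 82.5 ± 4.24 and 72.7 ± 8.65 CPM. The other 3 uncalled targets were chosen for mention after their values were seen. Runx2, a master factor of bone formation, was at 45.6, 61.7 and 50.6 CPM in wild type and at 64.8, 98.8 and 65.4 CPM in the NgBR-labelled libraries (log2 fold change 0.54, SE 0.25, edgeR adjusted p = 0.456). Dlx2, a homeobox gene, was at 21.8 ± 2.26 and 32.2 ± 6.26 CPM, with a log2 fold change of 0.56 (SE 0.23) and an adjusted p of 0.368 in edgeR. For both of these the groups did not overlap. Id4, the remaining Id gene, was at 17.4, 9.27 and 21.7 CPM in wild type and at 25.1, 11.4 and 31.2 CPM in the NgBR-labelled libraries, which overlapped (log2 fold change 0.49, SE 0.41). The 6 targets that did not pass the filter included Msx1 and Msx2, with 0 counts in every library, and Dlx5, with 4 counts, all in NgBR-labelled library 3.

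Among ligands other than Bmp4 and Bmp2, 1 of 12 listed genes passed the filter, Gdf5, a joint-forming factor. It was at 0.830, 0.102 and 0.813 CPM in wild type and at 0.842, 3.66 and 2.10 CPM in the NgBR-labelled ones (log2 fold change 1.92, SE 0.72, edgeR adjusted p = 0.309). NgBR-labelled library 1 lay just above the highest wild-type value. Of 8 genes for proteases that process BMPs or collagens, 3 were tested and 0 called. Furin, the convertase that cuts BMP precursors, stood at 187 ± 3.03 CPM in wild type and 194 ± 59.2 CPM in the NgBR-labelled libraries, and Pcolce, an enhancer of Bmp1 activity, at 410 ± 95.1 and 359 ± 95.8 CPM.

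Of 16 secreted antagonists and modulators, 12 were tested and 0 called, with log2 fold changes between -1.22 and 0.75 and a median of -0.07. The most abundant were Fstl1, a follistatin-like protein, at 1126 ± 355 and 1262 ± 391 CPM, and Crim1 at 226 ± 139 and 226 ± 86.8 CPM in wild-type and NgBR-labelled libraries. The lowest fold change was that of Nbl1, an antagonist of the DAN family, named after its values were seen. It was at 38.6, 50.9 and 39.0 CPM in wild type and at 7.58, 29.0 and 18.1 CPM in the NgBR-labelled libraries, which did not overlap (log2 fold change -1.22, SE 0.41, edgeR adjusted p = 0.221). Over the alternatives its adjusted p ran from 0.0094 to 0.453, and it was called without the filter on low counts and in 1 further setting.

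BMP receptors and co-receptors, 12 of 14 tested, gave 0 calls and a median log2 fold change of -0.03, with a range of -0.48 to 0.96. The type II receptor gene Bmpr2 stood at 243 ± 67.9 and 240 ± 119 CPM, and Tgfbr3, the co-receptor betaglycan, at 387 ± 29.5 and 376 ± 173 CPM. Bmpr1b had 0 counts in every library. Of 12 signalling Smads and intracellular regulators, 11 were tested and 0 called, with a median of 0.21. Ski, a co-repressor of Smads, was at 197 ± 21.3 and 236 ± 60.7 CPM, and Smurf1, a ubiquitin ligase for Smads, at 198 ± 81.2 and 183 ± 31.2 CPM.

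Outside the naming rule, 2 genes of that list were singled out after their values were seen. Smad9, a BMP-activated Smad, was at 9.16, 6.84 and 9.39 CPM in wild type and at 24.8, 12.2 and 18.0 CPM in the NgBR-labelled ones. The groups did not overlap, and the log2 fold change was 1.11 (SE 0.31, edgeR adjusted p = 0.112, DESeq2 adjusted p = 0.0243). Over the alternatives its adjusted p ran from 0.0237 to 0.373. In edgeR it was called without NgBR-labelled library 2, without both libraries numbered 2, and in 1 further setting. Zfp423, a zinc finger partner of BMP Smads, had 0 counts in all wild-type libraries and 8, 8 and 3 in the NgBR-labelled libraries. Against 3 counts over the wild-type group it was at least 22.3-fold higher. That bound takes the 19 counts as they are, and the exact 95% interval of the pooled ratio starts lower, at 16.5. Zfp423 was chosen for mention after this difference was seen. It was below the filter. DESeq2, which tested it, gave an adjusted p of 0.000253, and edgeR without a filter on low counts one of 0.00234. As Zfp423 was picked for this difference, these p-values are descriptive and no further finding. All 5 bHLH partners of Id proteins were tested and 0 called, with a median log2 fold change of -0.14. Tcf3 stood at 205 ± 18.8 and 188 ± 30.8 CPM and Tcf12 at 161 ± 54.6 and 130 ± 21.3 CPM.

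**Figure D3:**
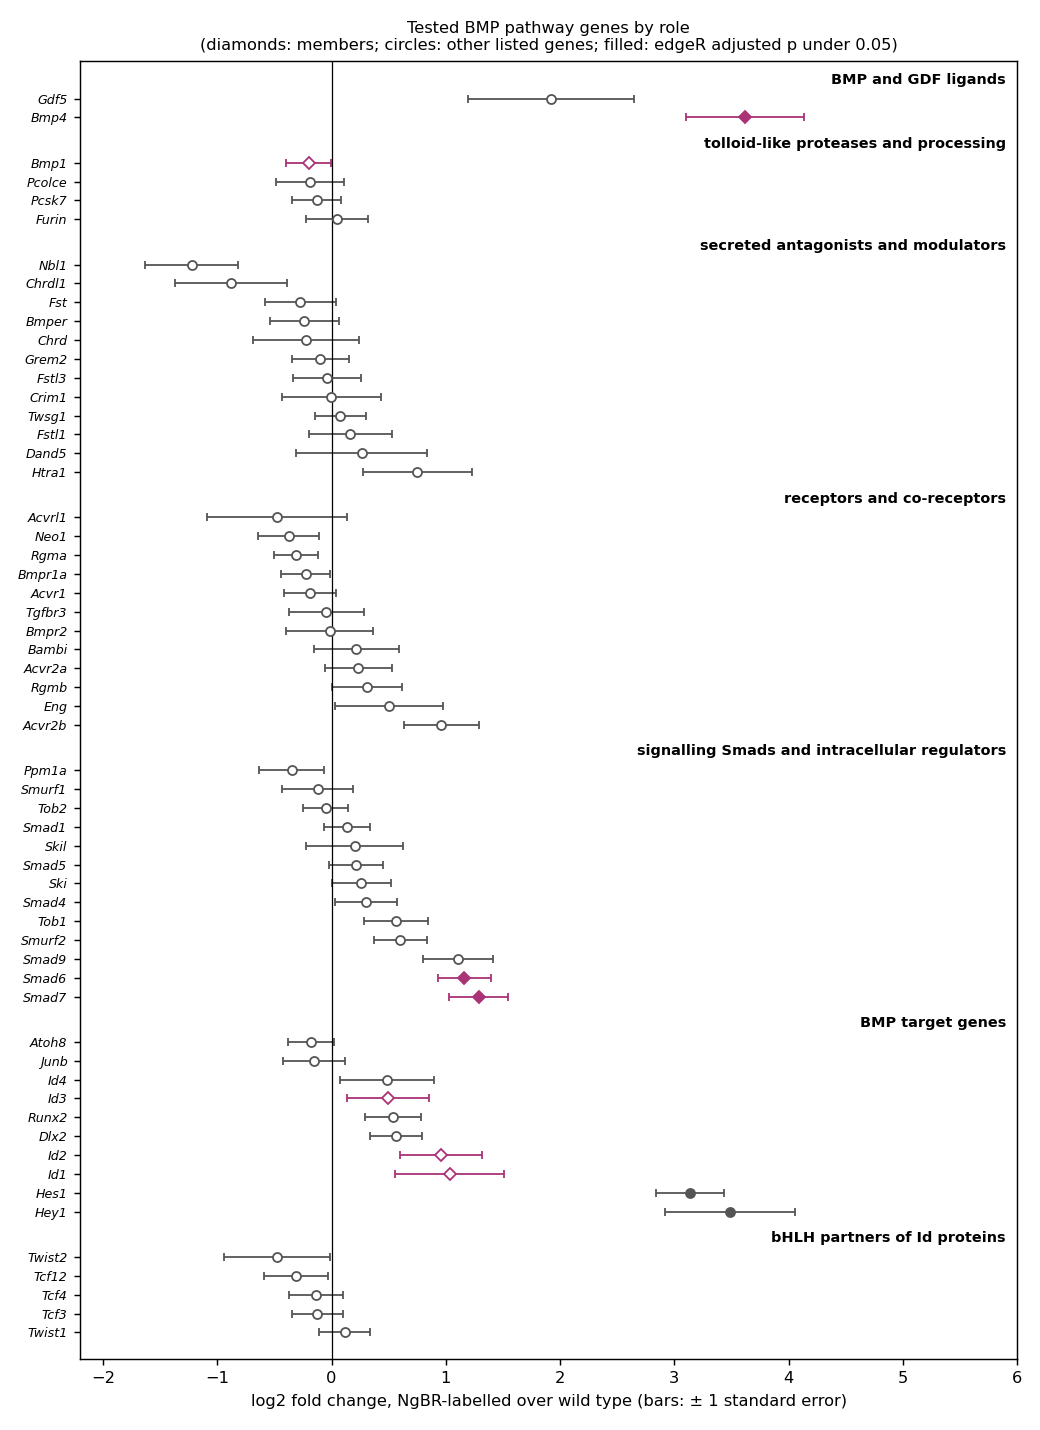
Log2 fold change of NgBR-labelled over wild-type libraries, with bars of 1 standard error, for the 7 tested genes of the 10 (diamonds) and the 51 other tested pathway genes (circles), grouped by role. Filled symbols have an edgeR adjusted p under 0.05. Bmp4 at 3.62, Hes1 at 3.13 and Hey1 at 3.49 stand apart to the right, Smad6 and Smad7 lie at 1.16 and 1.29, and the receptors lie between -0.48 and 0.96.

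The genes whose profile was most like that of Bmp4 were sought by the root mean square difference of log2 CPM, centred on each gene's mean, over the 6 libraries. Of 11444 genes compared, Hoxb5, a homeobox gene, was nearest, at 0.20. It stood at 0.379 ± 0.0393 CPM in wild type and 4.39 ± 1.33 CPM in the NgBR-labelled libraries and had its lowest NgBR-labelled value in library 2, as Bmp4 had. Tes3-ps (0.22), Mpped2 (0.24), RP23-395H12.1 (0.27) and Satb1 (0.29) followed. All 5 lay between 0.0522 and 0.379 CPM on average in wild type and between 1.41 and 4.39 CPM in the NgBR-labelled libraries. They were picked for likeness to a gene that differs between the groups, so that their own difference is no further finding.

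**Figure D4:**
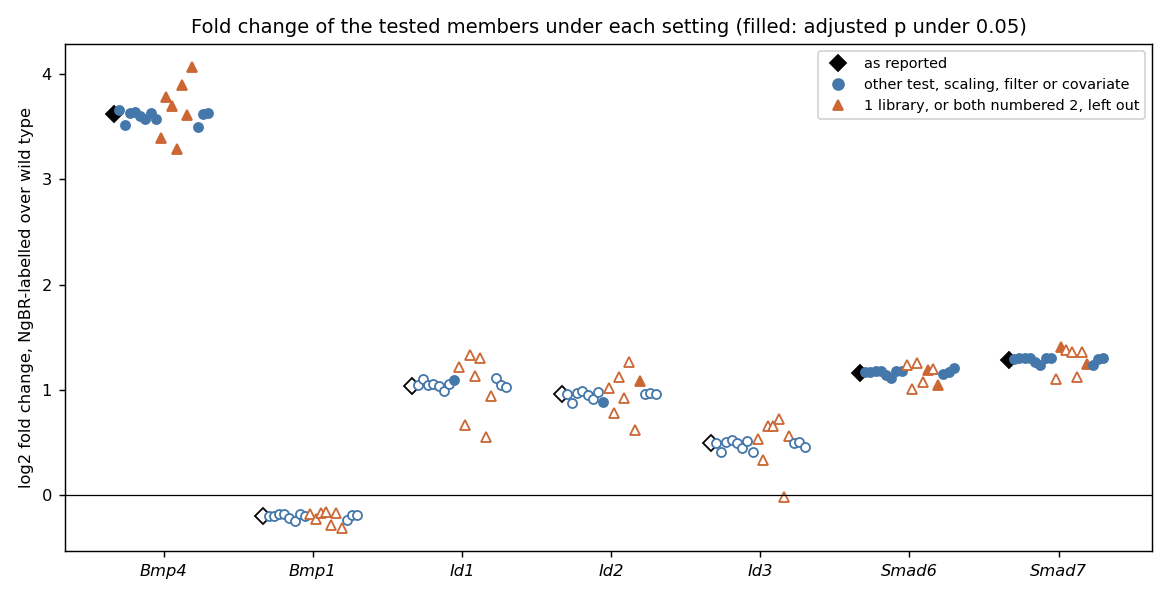
Log2 fold change of NgBR-labelled over wild type for the 7 tested genes under the reported fit (black diamonds), under other tests, scalings, filters and covariates (blue circles) and with 1 library or both libraries numbered 2 left out (orange triangles). Filled symbols have an adjusted p under 0.05. Bmp4 stays between 3.29 and 4.07 and is filled throughout, Smad6 and Smad7 are open in 5 settings each, and Id3 ranges from -0.02 to 0.72.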

How the data were processed

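Messenger RNA was measured by sequencing in 3 wild-type and 3 NgBR-labelled libraries. The deposited values are raw counts per gene, 1 column per library, not normalized. The authors used HISAT2 2.0.5 and featureCounts 1.5.0-p3 on mm10, per the submitters' processing notes. No source used here gives the annotation release or strand setting, so reads of antisense partners may have been counted with either gene.

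The members and lists were chosen with earlier results of these data known. Groups and column names were taken from the sample titles. Genes were filtered with filterByExpr and tested across all genes with edgeR 4.0.16 in R 4.3.3 (quasi-likelihood, TMM, no covariate, Benjamini-Hochberg adjustment), a procedure tested on simulated data. The standard error is the fold change over the root of the F statistic. Zero group totals were bounded at 3 counts per group, and exact 95% intervals of pooled counts are binomial. Intervals cover counting error only, and bounds take the counts of the other group as they are. Exonic lengths and positions came from GENCODE M21, which held 97.8% of the gene identifiers. Named genes were the 10 members, Nus1, and up to 4 called genes and the 2 of highest CPM per pathway list. The 5 profiles nearest to Bmp4 with a mean of at least 0.5 CPM (prior count 2) were also named. For these, symbols of Gm with digits or ending in Rik were left out and all other symbols were kept. Other genes in the text were named after their values were seen. The symbol of 1 listed gene, Tob2, stood on more than 1 row, and its tested row was used. Alternatives were DESeq2 1.42.0, limma-voom (limma 3.58.1), other scalings and filters, the replicate block, left-out libraries, thinning, protein-coding genes only and, added later, the length offset.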

Additional observations from a re-analysis of the deposited data

How the results depend on the processing

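Depth limits the low genes most: 3 counts over a group are 0.0307 CPM in wild type but 0.108 CPM in the NgBR-labelled libraries. Bmp4 kept its call and Bmp1, never called, its sign in all 18 alternatives, with ranges of 3.29 to 4.07 and -0.31 to -0.16 in log2 fold change. Smad6 and Smad7 were called in 13 of 18 each, and the exceptions are single left-out libraries, over which the values ranged from 1.01 to 1.25 and from 1.11 to 1.41. Id3 turned to -0.018 without NgBR-labelled library 3, and over the left-out libraries it ranged up to 0.72. Without both libraries numbered 2, Id2 was called at 1.09. The cause of these changes was not tested. Of the 10 genes, between 1 and 2 were called with single libraries left out, against 3. The other pathway genes called were 2, but 4 with DESeq2, 4 without a filter on low counts, 1 with a minimum of 1 CPM in 3 libraries, 1 after thinning, 3 without both libraries numbered 2, and between 1 and 3 with single libraries left out. All genes called were 429, but 726 with DESeq2, 688 without the filter, and between 225 and 374 with single libraries left out. DESeq2 also called Nog, which edgeR without a filter did not. No scaling moved the median of all genes by more than 0.02 in log2. Replicate numbers did not pair the libraries throughout: deviations of libraries with the same number correlated at 0.01, 0.34 and 0.43 for numbers 1 to 3. Wild-type libraries 2 and 3 correlated best with the NgBR-labelled library of their own number. Wild-type library 1 correlated best with NgBR-labelled library 3 (0.19). Whether the numbers mark a pairing was not tested. With the replicate block, 719 genes, 5 of the 10 and 4 of the other pathway genes were called, among them Id1 at 1.09, Id2 at 0.88, Smad9 at 1.07 and Nbl1 at -1.38.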
